A study of Mus musculus with 16 samples.

Results

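The Bcl2 family genes described here are 10 members chosen by their symbols: the anti-apoptotic Bcl2, Bcl2l1, Mcl1 and Bcl2a1a, the effector Bak1, and the BH3-only genes Bcl2l11, Bid, Bad, Bik and Bmf. They leave out Bax, Bbc3 and Pmaip1, the relatives best known as targets of p53. Of the 10 names, 9 were carried by a probe of the array, on 13 probes in all, out of 34650 gene names and 55681 probes. No probe bore the name Bcl2a1a. To be tested, a probe had to exceed background clearly in 6 or more of 8 mice of a group. This held for 12 of the 13 member probes, covering 8 genes, against 32664 probes and 23042 gene names over the whole array.

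Expression was measured in bone marrow of 16 mice, 8 per group, on 1-colour Agilent arrays with 1 array per mouse. KO chimeras were C57BL/6J mice given 950 rad and then, by a retro-orbital injection, whole marrow of the strain Adrb1tm1BkkAdrb2tm1Bkk/J, which lacks the beta-1 and beta-2 adrenergic receptors; the labels give a ratio of 1 to 4 (knockout strain to C57BL/6J) without explaining it further, and 2 to 3 months of recovery. Controls were irradiated C57BL/6J mice whose labels carry the same protocol text, the graft and the 1 to 4 ratio included, but list no strain as the source of marrow, so that what they received, if anything, is not settled by the labels. Receptor loss, the donors' genetic background and the graft itself cannot be told apart in this comparison, and the labels used here give neither age nor sex. Whole marrow was measured, so that fewer cells of a type and less RNA per cell cannot be told apart either.

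The BCL2 family sets the threshold of the mitochondrial route to cell death. Anti-apoptotic members hold the effectors BAX and BAK in check, BH3-only proteins neutralise those guardians or activate the effectors directly, and active BAX and BAK open the outer mitochondrial membrane, from which cytochrome c leaves to start the caspases. In marrow the balance is known to be lineage-specific: MCL1 is needed by stem cells and neutrophils, BCL-XL (the main product of Bcl2l1) by maturing red cells and platelets, BCL2 by mature lymphocytes, and BIM (from Bcl2l11) removes lymphocytes and myeloid cells when survival cytokines run out.

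Array brightness, taken as the 75th percentile of processed signal, was 127 to 545 for KO chimeras and 231 to 558 for controls, and arrays of a group correlated at r = 0.971 to 0.993 (KO chimeras) and 0.983 to 0.993 (controls) over the tested probes. Each KO chimera had a higher mean r with its own group than with the controls; the gap was smallest for number 7, at 0.979 and 0.976. The brighter of the Adrb1 probes read -2.99 to -2.19 (log2 scaled signal) in KO chimeras and -2.58 to -2.34 in controls and did not pass the test (adjusted p = 0.999), while the dimmer one read -4.33 to -1.99 and -5.13 to -3.62 (adjusted p = 0.0276, higher). Their place relative to the engineered deletion is unknown from the labels, and the genotype was therefore not checked with them. Marrow was recognisable by its defining genes: all 9 erythroid and all 12 neutrophil markers were above background on every array.

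Levels below are log2 of the processed signal over the array's 75th percentile, differences are KO chimera minus control on that scale with the standard error (SE) of the fit, and a call is a limma adjusted p (Benjamini-Hochberg over all tested probes) under 0.05. Of the 12 tested member probes, 5 were called, all 5 higher in KO chimeras and 0 lower (6 had an unadjusted p under 0.05). Over all tested probes 23.6% were called, 11.4% higher and 12.2% lower, and the median difference was 0.19 for the member probes and -0.012 for all. The 5 probes belong to 4 genes: Mcl1 (both probes), Bcl2l1, Bcl2l11 and Bad (1 of 2 probes each). Read from the brightest probe of each gene, 2 of 8 genes were higher, Mcl1 and Bcl2l11, and 0 lower (limma, with 3 of 8 at an unadjusted p under 0.05), where 22.3% of all genes were called, 10.3% higher and 12.1% lower. By that reading the member median was -0.025 and that of all genes -0.019. For 0 of the 12 member probes did the values of KO chimeras and controls separate without overlap, as those of 6.34% of all probes did. Within scan day 1 or scan day 2, with 4 mice of each group, 0 member probes passed (limma; 5 and 4 at an unadjusted p under 0.05), where 7.52% and 10.6% of all probes did.

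The call depended on the probe for Bcl2l1 and Bad, so the sequences that separate their probes are shown first, with those of Bcl2l11. Each array probe is 60 bases long. The downstream probes of Bcl2l1 and Bad, and the only Bmf probe, hold AATAAA, the hexamer known as the polyadenylation signal. The letters AATAAA were searched on the printed strand alone and occur in 10.06% of all 55681 probe sequences and in 3 of the 13 member probes. The hexamer is in capitals with the bases around it:
Bcl2l1 downstream: gcagttcagtAATAAAtggtgtctgt
Bad downstream: cgtgctttatAATAAAgcctgcgcat
Bmf: tacagtttttAATAAAaccatttaaa
The upstream probes of Bcl2l1 and Bad and both probes of Bcl2l11 are shown whole, because the calls below differ between them and their partners, and none holds the hexamer:
Bcl2l1 upstream: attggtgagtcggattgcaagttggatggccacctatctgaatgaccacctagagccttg
Bad upstream: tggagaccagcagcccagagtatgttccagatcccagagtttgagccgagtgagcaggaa
Bcl2l11 upstream: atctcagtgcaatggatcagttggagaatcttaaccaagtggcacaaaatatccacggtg
Bcl2l11 downstream: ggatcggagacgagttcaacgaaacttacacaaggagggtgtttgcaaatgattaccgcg
A hexamer in a probe is a description of its letters, not of a site used in these mice. Upstream and downstream follow the gene's strand in the files' coordinates (mm9).

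**Figure D1:**
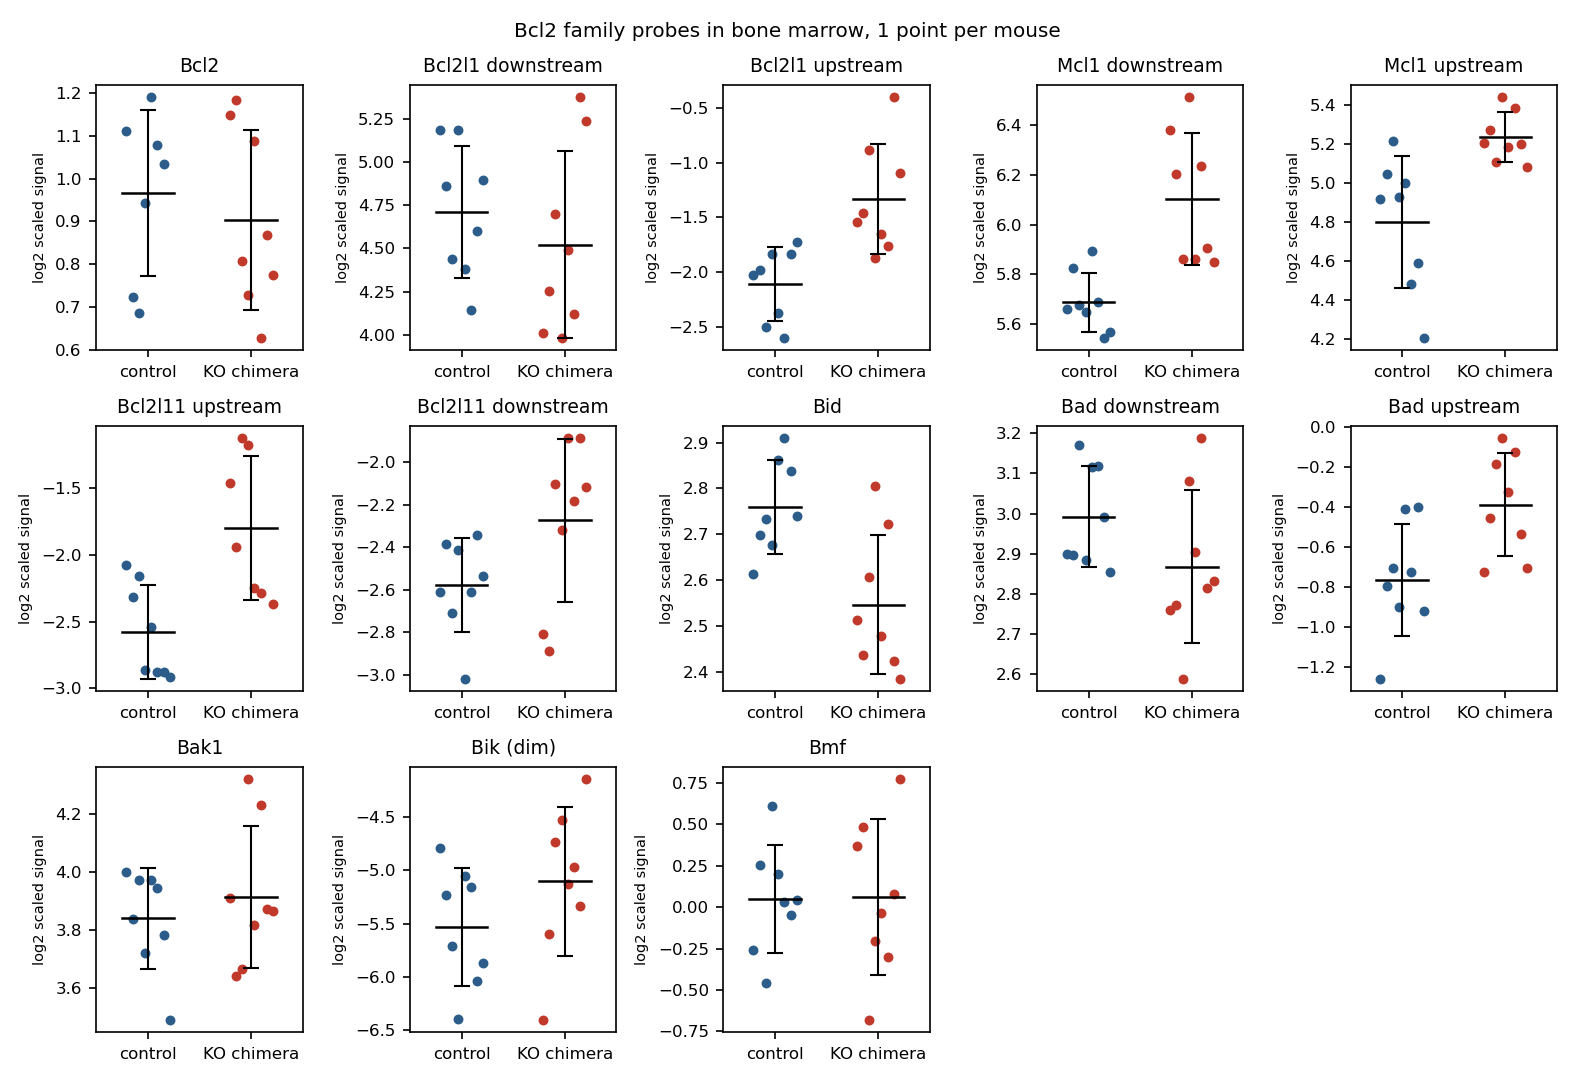
Each panel plots the log2 scaled signal of 1 probe (vertical axis, log2 of signal over the array's 75th percentile; horizontal axis, group), with 1 point per mouse and the mean and SD in black. Both Mcl1 panels and the upstream Bcl2l1 panel stand higher in KO chimeras, the downstream Bcl2l1 panel overlaps throughout, and Bik, marked dim, was not tested.

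Mcl1, which encodes a short-lived guardian that binds BIM and BAK, was higher in KO chimeras on both of its probes. The downstream probe (chr3:95466855-95466914, plus strand) read 5.85, 6.05 and 6.52 (lowest, median and highest) in KO chimeras and 5.54, 5.67 and 5.90 in controls. The groups overlap, with 5 of 8 KO chimeras above the highest control. The difference was 0.41 ± 0.11 (SE, n = 8 mice per group), a 1.33-fold level (adjusted p = 0.00939). The upstream probe (chr3:95465543-95465602) read 5.08, 5.20 and 5.44 against 4.20, 4.92 and 5.21. Here the KO chimeras lay close together and 3 controls, numbers 6, 7 and 8, read well below the rest. The upstream difference was 0.44 ± 0.13, 1.36-fold (adjusted p = 0.0186). Within scan day 1 the differences were 0.51 downstream and 0.37 upstream, and within scan day 2 they were 0.31 and 0.51 (adjusted p 0.10 to 0.211).

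Bcl2l1 gave unlike results on its probes, which lie 48781 bases apart. The upstream probe (chr2:152655185-152655244, minus strand), which starts at base 720 of its listed transcript, read -1.87, -1.50 and -0.40 in KO chimeras and -2.61, -2.00 and -1.73 in controls. Of the KO chimeras 6 stood above the highest control, number 7 highest of all. The difference was 0.78 ± 0.20, 1.71-fold (adjusted p = 0.00948), and 0.48 after normexp background correction with quantile normalization (adjusted p = 0.0080). The downstream probe (chr2:152606404-152606463), the brighter of the pair, starts at base 2563 of its listed transcript and read 3.98, 4.37 and 5.38 in KO chimeras and 4.14, 4.73 and 5.19 in controls. The groups overlap throughout, with KO chimeras 7 and 8 the highest and numbers 1, 4 and 6 the lowest of all mice. Its difference was -0.19 ± 0.22 (adjusted p = 0.592), with -0.38 within scan day 1 and 0.0063 within scan day 2. Bcl2l1 is known for 2 splice forms of opposite action, the protective BCL-XL and the shorter, pro-apoptotic BCL-XS. The upstream probe was designed on transcript variant 3 and the downstream probe on variant 1. Which of the splice forms each probe reads was not determined.

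Bcl2, which protects mature lymphocytes, did not pass the test on its only probe (chr1:108608970-108609029, minus strand), designed on transcript variant 2. It read 0.63, 0.84 and 1.18 in 8 KO chimeras and 0.69, 1.03 and 1.19 in 7 controls, the spot of control 8 being left out as an outlier at 1.49. The difference was -0.06 ± 0.11 (adjusted p = 0.732). For Bcl2a1a, the A1 gene induced by NF-kB in myeloid cells and lymphocytes, the nearest reading is a probe named Bcl2a1d (chr9:88618165-88618224, minus strand), whose accession list also holds transcripts of Bcl2a1a and Bcl2a1b, so its signal cannot be assigned to 1 of these near-identical copies. It read 1.71, 2.03 and 2.40 in KO chimeras and 1.99, 2.17 and 2.56 in controls, a difference of -0.18 ± 0.11 (adjusted p = 0.290). The related Bcl2a1c (chr9:114239422-114239481) read -1.29, -0.69 and -0.39 against -1.36, -1.14 and -0.90, a difference of 0.35 ± 0.13 (adjusted p = 0.062).

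Bak1, the effector on the list, was level within the spread. Its probe (chr17:27156807-27156866, minus strand) read 3.64, 3.87 and 4.32 in KO chimeras and 3.49, 3.89 and 4.00 in controls. The KO chimeras enclose nearly all controls, and the difference was 0.07 ± 0.11 (adjusted p = 0.679).

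Among the BH3-only genes, Bcl2l11 was called on 1 of its probes. The upstream probe (chr2:127954736-127955417, plus strand) was designed on transcript variant 4, and its 60 bases cover 682 bases of the genome, so as placed it crosses a splice junction. It read -2.37, -1.94 and -1.12 in 7 KO chimeras and -2.92, -2.70 and -2.08 in 8 controls. The difference was 0.78 ± 0.22, 1.72-fold (adjusted p = 0.0154). The KO chimeras fell into a higher and a lower group of values that followed the brightness of the array: the 4 dimmest KO arrays (75th percentile 127 to 232) read -1.94 to -1.12, and the brighter ones (407 to 545) read -2.37 to -2.24 in the 3 with a value. In controls the 4 dimmest arrays (75th percentile 231 to 333) read -2.88 to -2.16 and the 4 brightest (434 to 558) -2.92 to -2.08. The dimmest control arrays were mostly brighter than the dimmest KO arrays. The part of array brightness in this difference was not tested. The spot of KO chimera 7 was an outlier at 2.64 and was left out; with it the difference was 1.34 (adjusted p = 0.0889), in the authors' values, where no spot was left out, 1.30 (adjusted p = 0.101), and with normexp background correction 0.35 (adjusted p = 0.0487). The downstream probe, designed on variant 1 (chr2:127972893-127983988, spanning 11096 bases), read -2.89, -2.15 and -1.88 against -3.02, -2.57 and -2.34. It is high in KO chimeras other than numbers 1 and 2, and its difference was 0.31 ± 0.15 (adjusted p = 0.162). Here the 4 dimmest KO arrays read -2.89 to -2.10 and the 4 brightest -2.18 to -1.88, the reverse of the order on the upstream probe. The 4 dimmest control arrays read -3.02 to -2.34 and the 4 brightest -2.61 to -2.38. The Bcl2l11 probes were designed on different transcript variants, and which forms of the transcript each reads was not determined. The call therefore holds for the upstream probe alone and not for Bcl2l11 transcripts as a whole.

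Bad, whose protein is held inactive by growth factor signalling, also differed between probes. The upstream probe (chr19:7016918-7017403, plus strand, its 60 bases spanning 486) read -0.73, -0.39 and -0.05 in KO chimeras and -1.26, -0.76 and -0.40 in controls. The groups overlap, with controls 3, 5, 6 and 7 inside the range of the KO chimeras. The difference was 0.38 ± 0.13, 1.30-fold (adjusted p = 0.0497), at the very edge of the threshold, and the call ended under 10 of 14 other settings and without any 1 of 11 mice (KO chimeras 2, 3, 4, 5 and 6, controls 1, 2, 3, 4, 6 and 8; adjusted p 0.0634 to 0.0976). The downstream probe (chr19:7026323-7026382), the brighter one, read 2.59, 2.82 and 3.19 against 2.85, 2.95 and 3.17, a difference of -0.12 ± 0.09 (adjusted p = 0.358).

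Bid, which links death receptors to mitochondria once caspase-8 cuts it, was the member nearest to a lower call. Its probe (chr6:120843464-120843523, minus strand) read 2.38, 2.49 and 2.81 in KO chimeras and 2.61, 2.74 and 2.91 in controls. Of the KO chimeras 6 lay below the lowest control, and numbers 4 and 6 were the exceptions. The difference was -0.21 ± 0.08 (adjusted p = 0.0581). It passed with normexp background correction (adjusted p = 0.0467), scan day as a block (0.0438) or a variance trend (0.0459), and without KO chimera 4 (0.0201) or KO chimera 6 (0.0404).

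Bmf, which senses detachment and cytoskeletal stress, read -0.68, 0.02 and 0.78 in KO chimeras and -0.46, 0.04 and 0.61 in controls (chr2:118354496-118354555, minus strand). The difference was 0.01 ± 0.19 (adjusted p = 0.971), and its sign turned with slide as a block (-0.06). Bik (chr15:83374048-83374107, plus strand) was above background on 1 KO chimera and 2 control arrays and was not tested. Its readings, -6.41, -5.05 and -4.14 against -6.40, -5.47 and -4.79, lie mostly at background and carry no order.

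**Figure D2:**
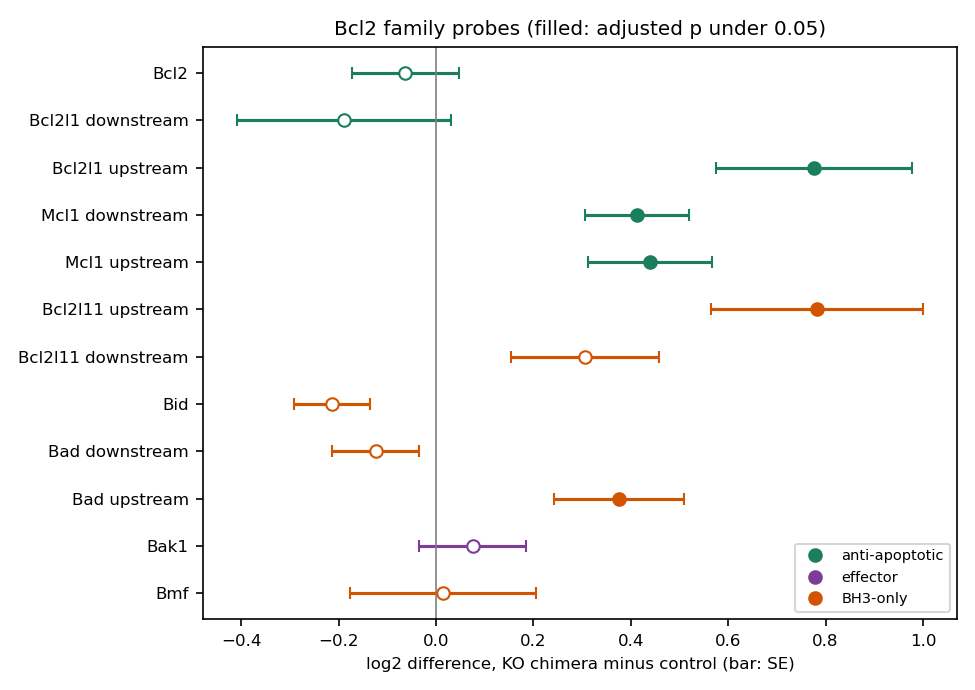
The 12 tested probes are plotted by their log2 difference, KO chimera minus control (horizontal axis), with the SE of the fit as bars, coloured by role and filled where the adjusted p was under 0.05. The filled points are both Mcl1 probes and the upstream probes of Bcl2l1, Bcl2l11 and Bad, while the downstream probes of Bcl2l1 and Bad lie below 0.

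For the 4 members with 2 probes, the difference between upstream and downstream probe was formed on each array and compared between groups, a comparison added after the values had been seen. For Bcl2l1 it read -6.33, -5.82 and -5.55 in KO chimeras and -7.22, -6.80 and -6.44 in controls. Every KO chimera stood above every control, as the groups separated either way in 6.17% of 9032 probe pairs across the array. The shift was 0.97 ± 0.13 (limma adjusted p = 4.35e-05), 0.91 to 1.03 with any mouse left out, 1.02 within scan day 1 (adjusted p = 0.00782) and 0.91 within scan day 2 (adjusted p = 0.0311). For Bad it read -3.54, -3.27 and -2.77 against -4.16, -3.78 and -3.40. Here 6 KO chimeras stood above the highest control, and the shift was 0.50 ± 0.12 (adjusted p = 0.0064), with 0.53 and 0.47 within the scan days (adjusted p = 0.102 and 0.066). The Bad shift was thus called over all mice but within neither scan day. The comparison does not say which probe of a pair moved.

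The shift of Bcl2l11 was 0.53 ± 0.29 (n = 7 KO chimeras and 8 controls) and did not pass (adjusted p = 0.223). That of Mcl1, whose probes lie only 1312 bases apart, was 0.03 ± 0.12 (adjusted p = 0.908), as both probes had risen by similar amounts. Over all 9032 pairs 22.4% were called, 15.0% higher and 7.35% lower. The median pair moved by 0.065, and 58.6% of pairs lay above 0. Per array, the median of upstream minus downstream read -0.790, -0.745 and -0.687 in KO chimeras and -0.861, -0.800 and -0.776 in controls (p = 0.00249 in an exact permutation test, two-sided, n = 8 per group). Upstream signal relative to downstream signal thus moved with the group across the array, by 0.056 on the mean of the medians, and its part in the Bcl2l1 and Bad shifts was not tested.

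**Figure D3:**
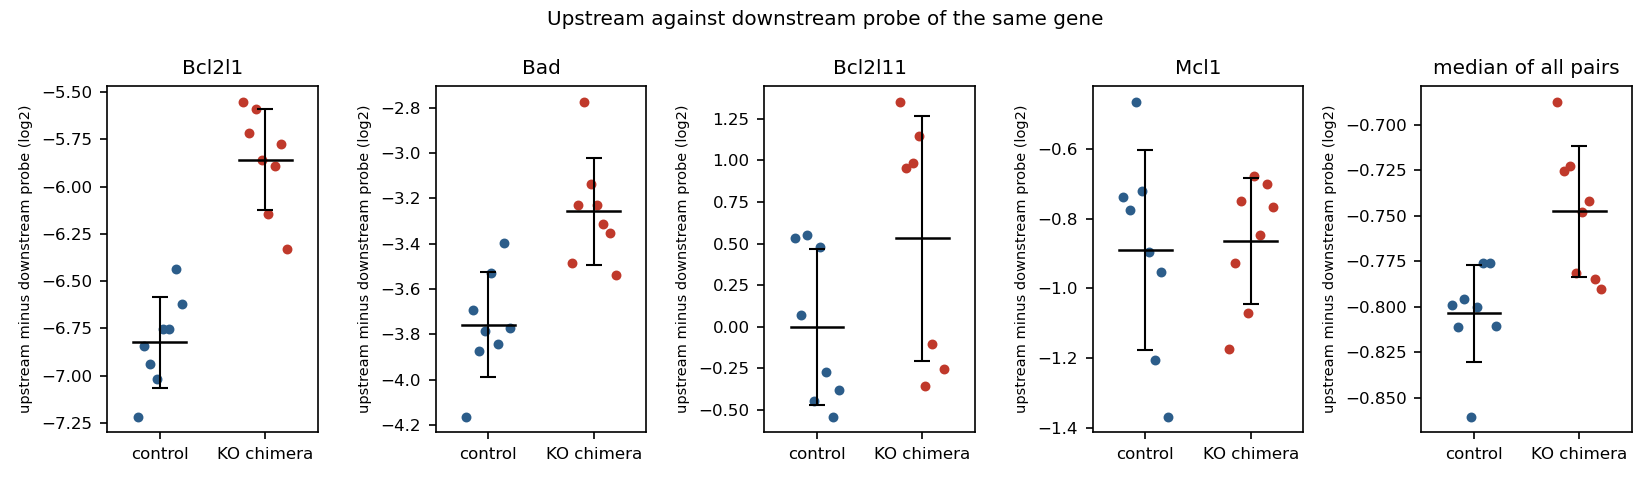
Each panel plots the log2 signal of the upstream minus that of the downstream probe of a gene (vertical axis) by group (horizontal axis), with 1 point per mouse and the mean and SD in black; the last panel is the median of 9032 pairs per array. Groups are apart for Bcl2l1 and overlap for Bad (6 KO chimeras above the highest control), Bcl2l11, Mcl1 and the median. The panel of the median also reads higher in KO chimeras, with group medians of -0.745 against -0.800 in controls.

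The genes whose brightest probe most resembled a called member were found by Pearson correlation after each group's mean was subtracted, as a description. For Mcl1 (16 arrays) they were the unnamed probe A_55_P2096010 and NAP112100-1, both at r = 0.92. For Bcl2l11 (15 arrays) they were Gm5792 and Paxbp1, both at r = 0.88. Arrays share their total RNA and brightness across all such pairs.

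The rest of the apoptosis machinery was read from lists of 76 gene names, 73 of them measured, by the brightest probe. Of the 73, 9 were higher, 11 lower and 53 not called, with a median of -0.038 beside -0.019 for all genes, where 22.3% of all genes were called. Among 11 further Bcl2 relatives 1 was higher, 2 lower and 8 not called (median 0.044). Bok, an effector-like relative, read -3.51, -2.61 and -2.14 in KO chimeras and -4.25, -3.46 and -3.24 in controls, a difference of 0.89 ± 0.21 (adjusted p = 0.00452), which was 0.34 with normexp background correction. Within scan day 1 the Bok difference was 0.62 and not called (adjusted p = 0.205), and within scan day 2 it was 1.16 (adjusted p = 0.0115). Bnip3, a mitophagy receptor, read 0.849, 1.04 and 1.326 against 1.331, 1.45 and 1.73, so that all KO chimeras were below all controls; the difference was -0.38 ± 0.09 (adjusted p = 0.00425). Within scan days 1 and 2 the Bnip3 difference was -0.36 and -0.39 and not called (adjusted p = 0.167 and 0.0734). Bcl2l14, the other gene counted as lower, was above background on 8 control but only 3 KO chimera arrays and so was tested because of its control level alone; its size is approximate (-1.74, or -0.56 with normexp), and a second probe read -0.25 and was not called.

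Of the 3 relatives known as p53 targets, Bbc3, which encodes the BH3-only protein PUMA, was higher with no overlap at 2.09, 2.72 and 2.96 against 1.095, 1.29 and 1.81. Its difference was 1.28 ± 0.14 (adjusted p = 2.72e-06). Bax at -0.15 and Pmaip1 at -0.05 were not called. By the brightest probe, 10.3% of all genes were called higher and 12.1% lower. Downstream of the mitochondria, 0 of 14 apoptosome and caspase genes were higher and 1 lower, and of 6 caspase inhibitors 0 were higher and 1 lower. These were Diablo, an antagonist of inhibitor proteins, at -0.49 ± 0.09 (adjusted p = 0.00117; 0.21 and not called on a second probe), and Birc6, a giant ubiquitin ligase that restrains caspases, at -0.27 ± 0.06 (adjusted p = 0.00599). Diablo was called within scan day 2 but not scan day 1 (adjusted p = 0.0142 and 0.135). Birc6 was called within neither (adjusted p = 0.248 within scan day 1 and 0.113 within scan day 2).

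Of 8 genes of the death receptor arm, which feeds into Bid, 0 were higher and 2 lower. By the same reading, 10.3% of all genes were higher and 12.1% lower. Fadd, the adaptor that brings caspase-8 to the receptors, differed by -0.32 ± 0.09 (adjusted p = 0.0158; 0.0518 with normexp). The Fadd call also ended within scan day 1 and within scan day 2 (adjusted p = 0.130 and 0.178). Tnfsf10, the ligand TRAIL, differed by -0.37 ± 0.13 (adjusted p = 0.0388), a call that ended without any 1 of 11 mice (KO chimeras 1, 3, 5, 6, 7 and 8, controls 1, 2, 4, 5 and 6; adjusted p 0.0529 to 0.0767) and with normexp (-0.19, adjusted p = 0.154). The 3 voltage-dependent anion channels of the outer mitochondrial membrane were not called (limma, 0 of 3 at an unadjusted p under 0.05); Vdac1 differed by -0.08 ± 0.09 (adjusted p = 0.587).

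Among 17 known regulators of the members, 5 were higher, 2 lower and 10 not called (median 0.025), where 22.3% of all genes were called. Foxo3, a transcription factor that can induce Bcl2l11, read -2.44, -2.04 and -1.83 in KO chimeras and -3.53, -3.12 and -2.87 in controls. Ddit3, the stress factor CHOP, read 1.32, 1.52 and 1.61 against 0.46, 0.75 and 1.08. Groups did not overlap for either gene, and the differences were 1.07 ± 0.12 (adjusted p = 6.08e-06; 0.41 with normexp) and 0.74 ± 0.10 (adjusted p = 3.39e-05). Dynll1, a dynein light chain that binds BIM and BMF, read -4.57, -3.96 and -3.27 against -2.74, -2.39 and -1.67. Its difference was -1.63 ± 0.20 (adjusted p = 1.01e-05; -0.64 with normexp), with 6 KO chimera arrays above background. Pim1, a kinase that phosphorylates BAD, read 2.37, 2.66 and 3.10 against 2.04, 2.25 and 2.39, a difference of 0.52 ± 0.11 (adjusted p = 0.00208). Neither scan day alone gave a Pim1 call (0.57 on day 1 and 0.46 on day 2, adjusted p = 0.0918 and 0.0716).

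Of 11 receptors for survival cytokines, 2 were higher, 3 lower and 6 not called (median -0.089), where 22.3% of all genes were called. Kit, the stem cell factor receptor, read 0.64, 0.86 and 1.06 against 1.48, 1.79 and 1.96, all KO chimeras below all controls, a difference of -0.90 ± 0.09 (adjusted p = 1.68e-06). Il7r, the interleukin-7 receptor of early lymphocytes, differed by 0.46 ± 0.13 (adjusted p = 0.0179; 0.0875 with slide as a block). Within scan day 1 it differed by 0.36 and was not called (adjusted p = 0.399), and within scan day 2 by 0.57 (adjusted p = 0.0295). Il2rg, the common gamma chain, differed by -0.32 ± 0.11 (adjusted p = 0.0433), a call that ended without any 1 of 9 mice (KO chimeras 3, 4 and 8, controls 1, 4, 5, 6, 7 and 8; adjusted p 0.0571 to 0.0858), and under quantile, normexp and the authors' values; within scan day 2 the difference was -0.16.

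**Figure D4:**
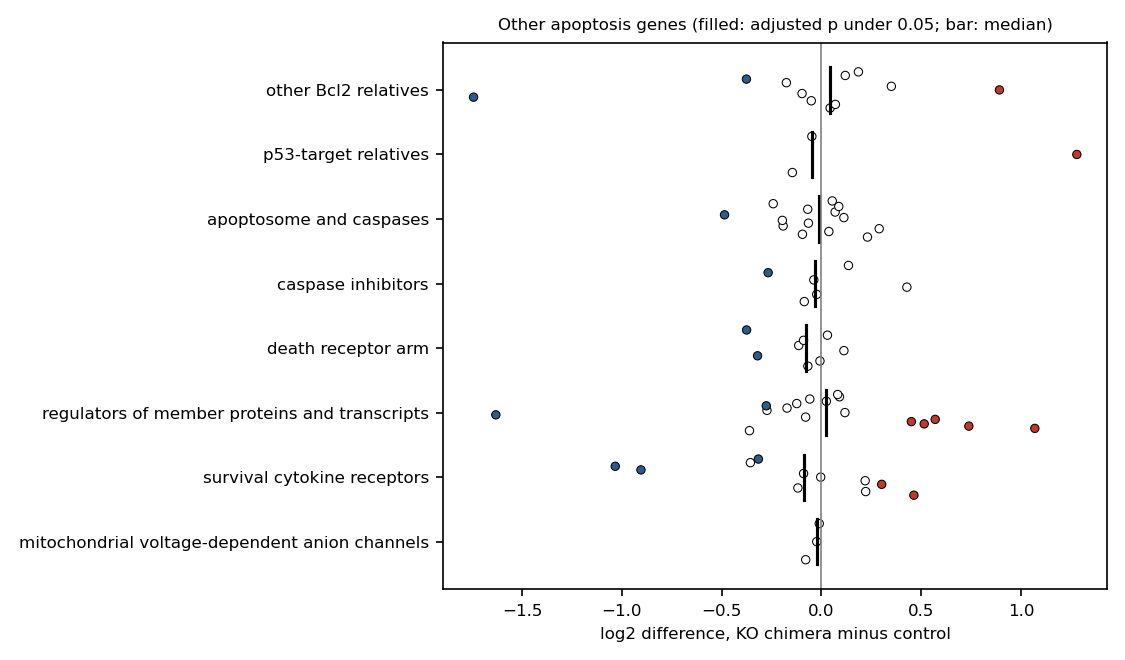
Each point is a measured gene of a list (vertical axis), placed by its log2 difference, KO chimera minus control (horizontal axis), filled where the adjusted p was under 0.05, with the list's median as a black bar. All list medians lie near 0, and the points farthest out are Bcl2l14 and Dynll1 on the lower side and Bbc3 and Foxo3 on the higher side.

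Markers of marrow cell types were read by the brightest probe, and the share called differed from list to list. Over all genes 22.3% were called, 10.3% higher and 12.1% lower. The B lineage, dendritic cell, and endothelial and stromal lists below lay near that share. None of the 9 erythroid or 12 neutrophil markers was called (limma, 0 and 1 at an unadjusted p under 0.05); their summed scaled signal was 794 to 1485 against 732 to 1447, and 2736 to 4191 against 2928 to 3441 with 4 KO chimeras above all controls. Of 6 monocyte markers 2 were higher and 1 lower (sum 83.9 to 154 against 70.0 to 102), and of 10 B lineage markers 2 were higher and 0 lower (sum 53.5 to 126 against 46.6 to 127). Of 8 T cell markers 1 was higher and 3 lower (30.3 to 49.3 against 37.5 to 81.4), and of 8 megakaryocyte and platelet markers 0 were higher and 5 lower (21.1 to 47.8 against 38.3 to 68.8). Of 6 plasma cell markers 4 were lower (53.03 to 83.3 against 84.9 to 148), the sums not overlapping between groups. Among all probes, read singly, the groups did not overlap for 6.34%. Of 7 stem and progenitor markers 1 was higher and 3 lower (9.32 to 13.1 against 11.6 to 19.1), the called ones being Kit, Meis1, Gata2 and Procr; Kit also stands among the receptors above. Of 6 resident macrophage markers 0 were higher and 3 lower (6.96 to 11.8 against 10.3 to 17.7), and of 9 markers of eosinophils, basophils and mast cells 0 were higher and 4 lower (87.7 to 292 against 176 to 302). Of 8 NK cell markers 1 was higher and 2 lower (26.3 to 39.9 against 28.1 to 43.7). Of 5 dendritic cell markers 1 was lower, and of 8 endothelial and stromal markers 1 was higher and 1 lower. The 3 adipocyte and 2 skeletal muscle markers measured were not called (limma, 0 at an unadjusted p under 0.05). The part of cell makeup in the member differences was not tested.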

How the data were processed

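Sample titles gave each mouse its group and number. The scanner software was Agilent Feature Extraction, version 10.7 in the submitters' processing notes and 10.1.1.1 in the headers. Per the file headers, the deposited values are linear spot intensity after background subtraction; the authors' processed log2 values, of unknown centring, correlated with the scanner signal at r = 0.9996 or more and served as an alternative. Each non-control signal was scaled to the 75th percentile of its own array before log2; outlier spots were left out, and 0 spots were saturated. Probe names and positions (mm9) are the files'.

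The comparison used limma 3.58.1 (lmFit, eBayes, two-sided tests; R 4.3.3) over 32664 probes on 16 arrays, and pairs of probes of a gene over 9622 pairs, of which 9032 lay on 1 strand within 1 Mb. A gene's reading is its brightest probe. Named were all members, from each list the up to 4 called genes with the lowest p (failing any call, the lowest p), and the 2 genes most like each called member. One gene that this rule names is not reported here. Members and lists were chosen with earlier results of these data known. On simulated data for this comparison over 31740 probes, calls were made for 14 of the 50 probes given a change of 0.5 (log2), for 44 of the 50 given 1, for 49 of those given 2 and for 36 of those given -1. No other probe was changed in the simulation, whereas 23.6% of probes were called in the data. The adjusted p depends on that share, so these counts do not give the sensitivity of the real comparison. The number of arrays limits the precision. Each sample is labelled a separate mouse. There were 6 slides, of which 5 carried both groups, and 2 scan days, each with 4 mice of either group. Alternatives covered scaling, background, filters, outlier spots, slide, scan day, the replicate block, the variance model, the threshold and each mouse.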

Additional observations from a re-analysis of the deposited data

How the results depend on the processing

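Called member probes numbered 5, but 3 in the authors' values, 3 with outlier spots kept, 2 at an adjusted p under 0.01, 0 within scan day 1 and 0 within scan day 2, and 4 to 5 with 1 mouse left out. Called member genes numbered 2, but 1 in the authors' values, 1 with probes above background on all 16 arrays, 1 with outlier spots kept, 1 at an adjusted p under 0.01, 0 within scan day 1 and 0 within scan day 2, and 2 to 3 with 1 mouse left out. All called probes numbered 7696, but 4430 at an adjusted p under 0.01, 2456 within scan day 1, 3455 within scan day 2, and 6605 to 7945 with 1 mouse left out. Called list genes numbered 20, but 13 at an adjusted p under 0.01, 7 within scan day 1, 11 within scan day 2, and 16 to 19 with 1 mouse left out. The scan day fits have 4 mice per group and so fewer samples; other causes were not tested. Among members and their probe pairs, signs turned for values that were not called: Bmf (-0.062 with slide as a block, -0.059 on slides with both groups, -0.25 within scan day 1, -0.089 to 0.12 with 1 mouse left out), downstream Bcl2l1 (-0.19, but 0.0063 within scan day 2), and the Mcl1 probe pair (-0.023 quantile, -0.044 normexp, -0.019 authors' values, -0.14 within scan day 1, -0.042 to 0.087 with 1 mouse left out). The upstream Bad call also ended with quantile (adjusted p = 0.0574), normexp (0.0679), authors' values (0.0569), no filter (0.0973), outliers kept (0.0509), slide as a block (0.0624) and slides with both groups (0.0656). Replicate numbers did not pair the mice (correlations of deviations -0.18 to 0.19, 1 of 8 controls best matched to its own number); with the replicate block 5 member probes and 2 member genes were called, and of the named list genes only Il2rg lost its call (adjusted p = 0.0901). Dim probes limit what can be seen, and sizes there shrank with normexp. Those of Bcl2l11 are an example, although they were clearly above background wherever a value was kept.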
